A study of Saccharomyces cerevisiae with 19 samples.

Results

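The small-subunit (SSU) processome genes code for proteins of the large particle in which the RNA of the small ribosomal subunit is cut and folded. They were taken as a list of 49 named genes, and all 49 were found in both deposited count tables, which hold 6409 named genes. The list was drawn up by function, with earlier results of these data known. The study sequenced RNA of 5 strains of the budding yeast Saccharomyces cerevisiae, with 3 biological replicates of each, to follow what changes when Pcf11 changes. Pcf11 is a protein of the machinery that cuts messenger RNA at its 3′ end and adds the poly(A) tail. In 4 further libraries, 2 of them inputs, CLIP sequencing read the RNA crosslinked to overexpressed Flag-tagged Pcf11.

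The strains are labelled ΔPcf11, with the gene deleted, Pcf11-AARR, with 4 conserved residues changed (Y575A, E577R, E578R and W582A), Pcf11-OE1 and Pcf11-OE2, which overexpress the gene, and WT. Overexpression used either a strong promoter and terminator, TEF1p and GRS1t, or a weak pair, CDC60p and DITIt, and the labels do not say which strain holds which pair. Every library carries both strain names S288C and CEN.PK2-1C and the time 36 h, and antibiotics were given in liquid culture where a strain needed them. No label says whether a strain is a single clone. The reads did not bear out the deletion: PCF11 had 455, 426 and 478 reads in the ΔPcf11-labelled libraries, against 492, 445 and 501 in WT, so these libraries are named by their label throughout. PCF11 had 587, 1136 and 853 reads in Pcf11-AARR, 24972, 24491 and 24309 in Pcf11-OE1 and 3418, 2934 and 2870 in Pcf11-OE2.

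The processome assembles on the growing pre-ribosomal RNA in the nucleolus. The UtpA complex binds the 5′ external spacer first, UtpB and the U3 small nucleolar ribonucleoprotein (snoRNP) follow, and the U3 RNA pairs with the pre-ribosomal RNA so that the early cuts around the 18S sequence can be made. Helicases, a GTPase and RNA-modifying enzymes then reshape the particle. In yeast the genes of these factors are known to be transcribed together, high in fast growth and low in starvation. Many of their promoters hold the PAC motif, which the repressors Dot6 and Tod6 bind, and the RRPE motif, which the repressor Stb3 binds.

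Letters of both motifs were common upstream of the 49 genes. In windows from 250 bases before to 50 bases after the start codon, taken from the RefSeq R64 genome and searched on both strands, the PAC core GATGAG was present for 43 of 49 genes (87.8%), against 1224 of 6007 protein-coding genes (20.4%). The RRPE core AAAATTTT was present for 38 of 49 (77.5%), against 543 of 6007 (9.04%). Both cores stood in 35 of the 49 windows (71.4%), against 4.38% of all windows, and 3 genes, UTP22, UTP30 and EMG1, held neither core. The longer forms GCGATGAG and GAAAATTTT, which contain the cores, were present for 26 and 27 of the 49 genes (53.1% and 55.1%), against 3.93% and 4.66% of all genes. The median match centre lay 102 bases before the start codon for GATGAG (65 matches) and 129 bases before it for AAAATTTT (46 matches). A match is a string of letters and does not show that a factor is bound.

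**Figure D1:**
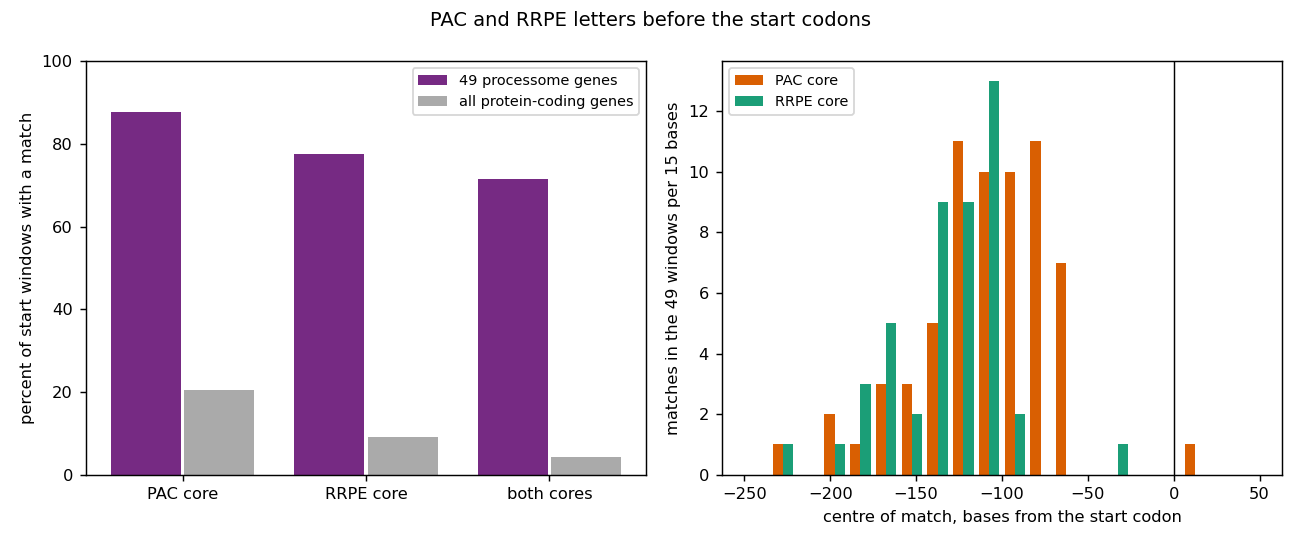
Left, the percent of the 49 processome genes (purple) and of all 6007 protein-coding genes (grey) whose window from 250 bases before to 50 after the start codon holds each motif. Right, the number of matches among the 49 genes by distance of the match centre from the start codon, in bins of 15 bases. The quartiles are -126 and -79 bases for the PAC core (median -102) and -148.5 and -112 for the RRPE core (median -129).

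The stretch that holds both cores is shown for 10 genes that the results below turn on, among them NSR1, with the highest fold changes, UTP10 and NOP56, lower in some strains, and NOP14, called in none. Each is written 5′ to 3′ on the strand of its gene, with GATGAG (or its reverse complement CTCATC) and AAAATTTT in capitals and 6 flanking bases on each side. The stretches are NSR1 at chrVII:807815-807849 on the minus strand, NOP1 at chrIV:427133-427171 on the plus strand, UTP6 at chrIV:1358996-1359037 on the minus strand, LCP5 at chrV:414299-414333 on the plus strand, ROK1 at chrVII:182267-182296 on the plus strand, ECM16 at chrXIII:523551-523583 on the plus strand, UTP10 at chrX:217398-217431 on the minus strand, UTP9 at chrVIII:491796-491833 on the plus strand, NOP56 at chrXII:545964-546000 on the plus strand and NOP14 at chrIV:190706-190748 on the minus strand (R64).

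NSR1: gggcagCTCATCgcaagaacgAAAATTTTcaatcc
NOP1: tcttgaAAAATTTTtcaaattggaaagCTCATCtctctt
UTP6: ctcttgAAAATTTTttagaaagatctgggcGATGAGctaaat
LCP5: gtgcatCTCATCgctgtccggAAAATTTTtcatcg
ROK1: tcgtgaAAAATTTTttgcGATGAGatggga
ECM16: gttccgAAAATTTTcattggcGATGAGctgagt
UTP10: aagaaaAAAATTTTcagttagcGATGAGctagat
UTP9: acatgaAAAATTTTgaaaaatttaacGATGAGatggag
NOP56: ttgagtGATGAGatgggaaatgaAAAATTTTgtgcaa
NOP14: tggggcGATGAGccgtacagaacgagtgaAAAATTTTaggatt

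UTP10 was lower than WT in 3 engineered strains and NOP56 in both overexpressing strains. NOP14 was called in none of the 4 comparisons with WT. UTP10, NOP56 and NOP14 hold both cores, as NSR1 and NOP1 do. Only genes with both cores were shown above. UTP22, UTP30 and EMG1, which hold neither core, rose in all 4 comparisons. Whether the cores bear on the direction of change was not tested.

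Facts of the libraries bear on all comparisons with WT. Gene totals ranged between 25930079 and 45796931 reads per RNA-seq library, and the lowest count of any of the 49 genes was 65, so all 49 passed the filter on low counts, as did 6147 of the 6409 genes. The mapped share, deposited for 9 libraries, was 56.4% to 61.9% in the ΔPcf11-labelled libraries and 49.9% to 91.6% in Pcf11-AARR, against 83.6% to 95.3% in WT. Several genes told WT from all 4 engineered strains at once. ASP3-2 is an asparaginase gene of a cluster that some strains lack. ASP3-2 had 4136 to 6513 reads in each engineered library, against 0, 0 and 2 in WT. SEO1, AIF1, ADH7 and RDS1 had 0 to 8 reads in engineered libraries, against 362 to 641 in WT. ASP3-1, of the same cluster, had 359, 141 and 491 reads in WT. With ASP3-3 and ASP3-4 these make 8 background genes. They were listed with these counts known, so testing them against WT is a description and no separate support. By the test used below, 4 of the 8 were lower than WT in each engineered strain and 4 higher, but 3 higher in Pcf11-AARR. Of 6 mating type a genes, 4 were higher in each, and 0, 2, 1 and 1 lower (ΔPcf11-labelled libraries, Pcf11-AARR, Pcf11-OE1, Pcf11-OE2). Of 4 mating type alpha genes, 2 were higher in each, and 0, 1, 0 and 0 lower in that order. Over all genes, in the same order, 34.8%, 33.8%, 36% and 34% were higher and 29.1%, 30.4%, 32.1% and 31.1% lower. Strain background and the change of Pcf11 therefore cannot be told apart in any comparison with WT, and all 4 of these comparisons share the same 3 WT libraries. A change per cell cannot be told apart from a change in the share of the counted RNA. The gene models of 47 of the 49 run 390 to 505 bases past the stop codon (median 446), and 15 share at least 20% of their length with a gene on the other strand; the kit is stranded, but the strand setting of the counting is not given in the sources used here, so reads of such pairs cannot be told apart.

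As a group, the 49 genes took a larger share of the reads in every engineered strain than in WT. Their summed level was 4596, 3290.3 and 4283 CPM (read counts per library of standard size, scaled by the trimmed mean of M values, TMM) in the ΔPcf11-labelled libraries and 4541, 4865 and 4720.2 CPM in Pcf11-AARR. It was 6093, 4741 and 3699.7 CPM in Pcf11-OE1 and 3162, 4791 and 3913 CPM in Pcf11-OE2, against 2931, 2650.3 and 2755 CPM in WT. All 12 engineered libraries stood above all 3 WT libraries, and the lowest of them was Pcf11-OE2 replicate 1. The means were 4057 ± 682 CPM for the ΔPcf11-labelled libraries, 4709 ± 162 CPM for Pcf11-AARR, 4844 ± 1200.1 CPM for Pcf11-OE1 and 3955 ± 815 CPM for Pcf11-OE2, against 2779 ± 142 CPM for WT (SD, n = 3). The spread within a strain was wide in the ΔPcf11-labelled libraries, Pcf11-OE1 and Pcf11-OE2 and narrow in Pcf11-AARR and WT. As a share of all gene reads, the 49 genes held 0.298% to 0.636% in engineered libraries, against 0.232% to 0.246% in WT.

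**Figure D2:**
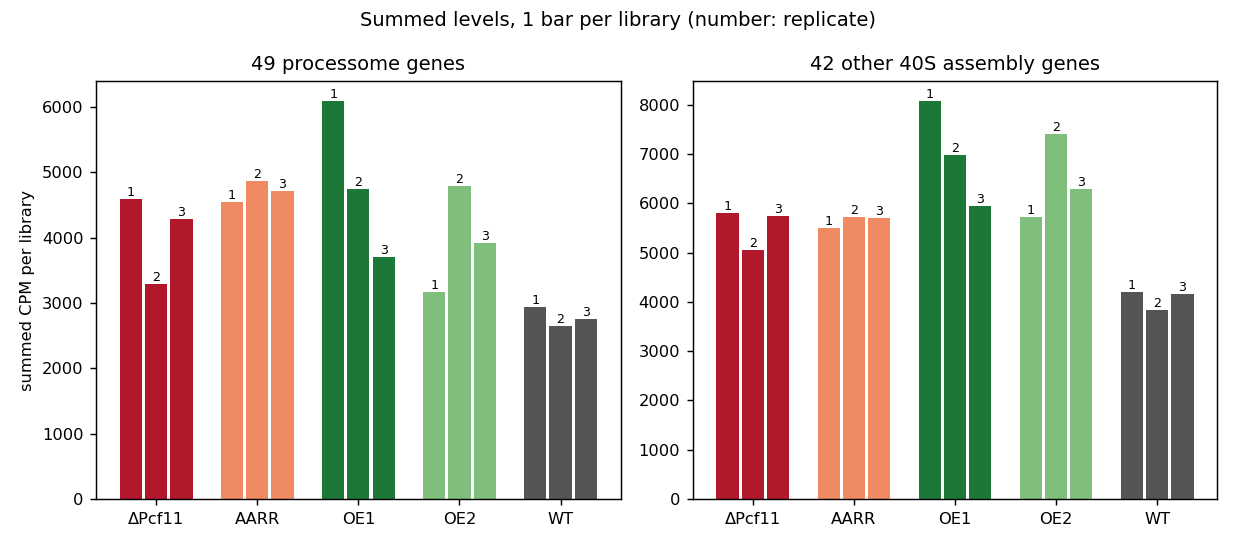
Summed CPM per library (vertical axis, from 0), 1 bar per library with its replicate number, for the 49 processome genes (left) and 42 other factors of small-subunit assembly (right). The 42 include the U3 RNA genes snR17a and snR17b. Bars of the 4 engineered strains stand left of WT, and all 12 engineered bars of the processome genes exceed the 3 WT bars.

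The genes span a wide range of levels. Per kilobase of gene model, SAS10 had the highest mean over the 15 libraries, 270.5 CPM per kilobase, and UTP8 the lowest, 2.83. The median over the 49 genes was 24.8 CPM per kilobase for the ΔPcf11-labelled libraries, 27.8 for Pcf11-AARR, 29.2 for Pcf11-OE1 and 21.2 for Pcf11-OE2, against 14.2 for WT. The median over all genes was between 31.6 and 32.4 in the engineered strains and 30.6 in WT, so the typical processome gene stayed below the typical gene in every strain. SAS10 was first of the 49 in each strain, MPP10 second over all libraries.

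**Figure D3:**
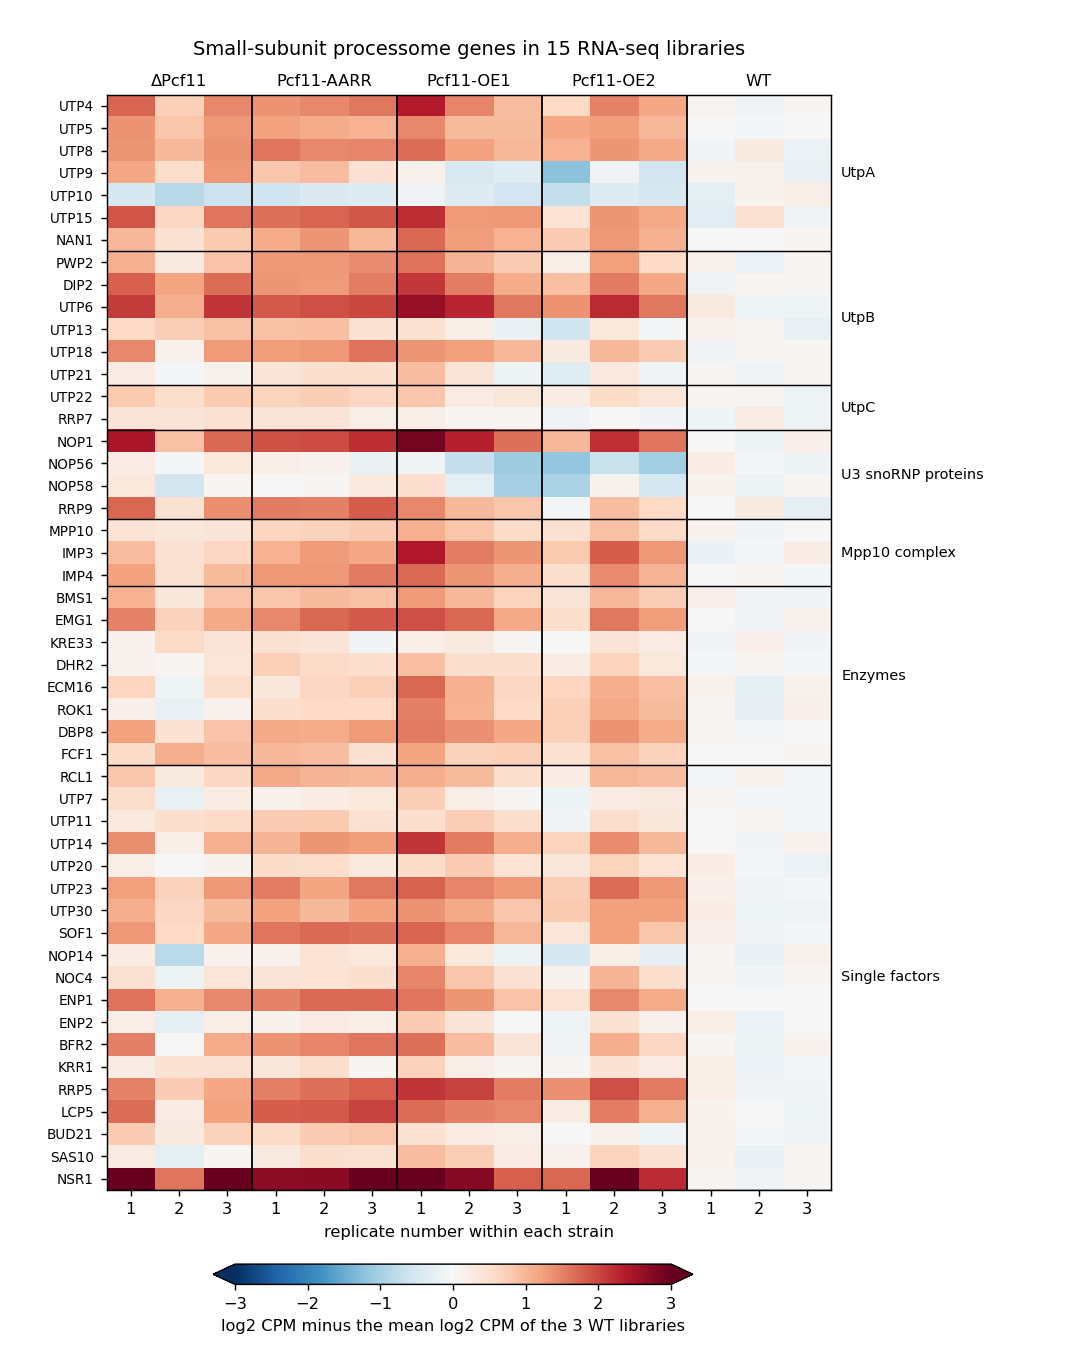
Rows are the 49 genes grouped by subcomplex and columns the 15 libraries, engineered strains left of WT; colour is a library's log2 CPM minus the mean log2 CPM of the 3 WT libraries, and values beyond 3 on the scale (NSR1) take the end colour. Most rows are red across the 12 engineered columns, while UTP10 is blue in most of them and NOP56 is blue in Pcf11-OE1 and Pcf11-OE2.

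Most of the 49 genes were higher in each engineered strain than in WT by edgeR's quasi-likelihood test with Benjamini-Hochberg adjustment over all 6147 genes at 0.05. In the ΔPcf11-labelled libraries, 33 of 49 genes were higher than in WT (background over all genes 34.8%), 1 lower (29.1%) and 15 not called; UTP10 was lower, and the median log2 fold change was 0.76 (all genes 0.07, lowest member -0.65, highest 3.19). In Pcf11-AARR, 37 of 49 genes were higher than in WT (background over all genes 33.8%), 1 lower (30.4%) and 11 not called; UTP10 was lower, and the median log2 fold change was 1.05 (all genes 0.05, lowest member -0.48, highest 2.83). In Pcf11-OE1, 36 of 49 genes were higher than in WT (background over all genes 36%), 1 lower (32.1%) and 12 not called; NOP56 was lower, and the median log2 fold change was 1.08 (all genes 0.04, lowest member -0.58, highest 3.21). In Pcf11-OE2, 32 of 49 genes were higher than in WT (background over all genes 34%), 2 lower (31.1%) and 15 not called; UTP10 and NOP56 were lower, and the median log2 fold change was 0.73 (all genes 0.02, lowest member -0.95, highest 2.47). The highest gene was NSR1 in each of the 4 comparisons. At least 2-fold higher were 17 genes for the ΔPcf11-labelled libraries, 25 for Pcf11-AARR, 26 for Pcf11-OE1 and 18 for Pcf11-OE2, and 0 were at least 2-fold lower. Of the 34 genes whose models share under 20% with another gene, an alternative chosen after seeing the data, 22, 24, 24 and 22 were higher. Leaving out 1 library at a time gave 29 to 33, 34 to 39, 34 to 41 and 25 to 36 genes higher in the 4 comparisons. The mapped shares and strain markers given above also differed between these libraries, and their part in the counts was not tested. Without TMM scaling, on library totals alone, the median of all genes moved to 0.20, 0.41, 0.34 and 0.28 and that of the 49 genes to 0.90, 1.40, 1.38 and 1.01, and the share of higher among all calls over all genes became 64.6%, 76.2%, 70.7% and 69.4%, against 54.5%, 52.7%, 52.9% and 52.3% with TMM.

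**Figure D4:**
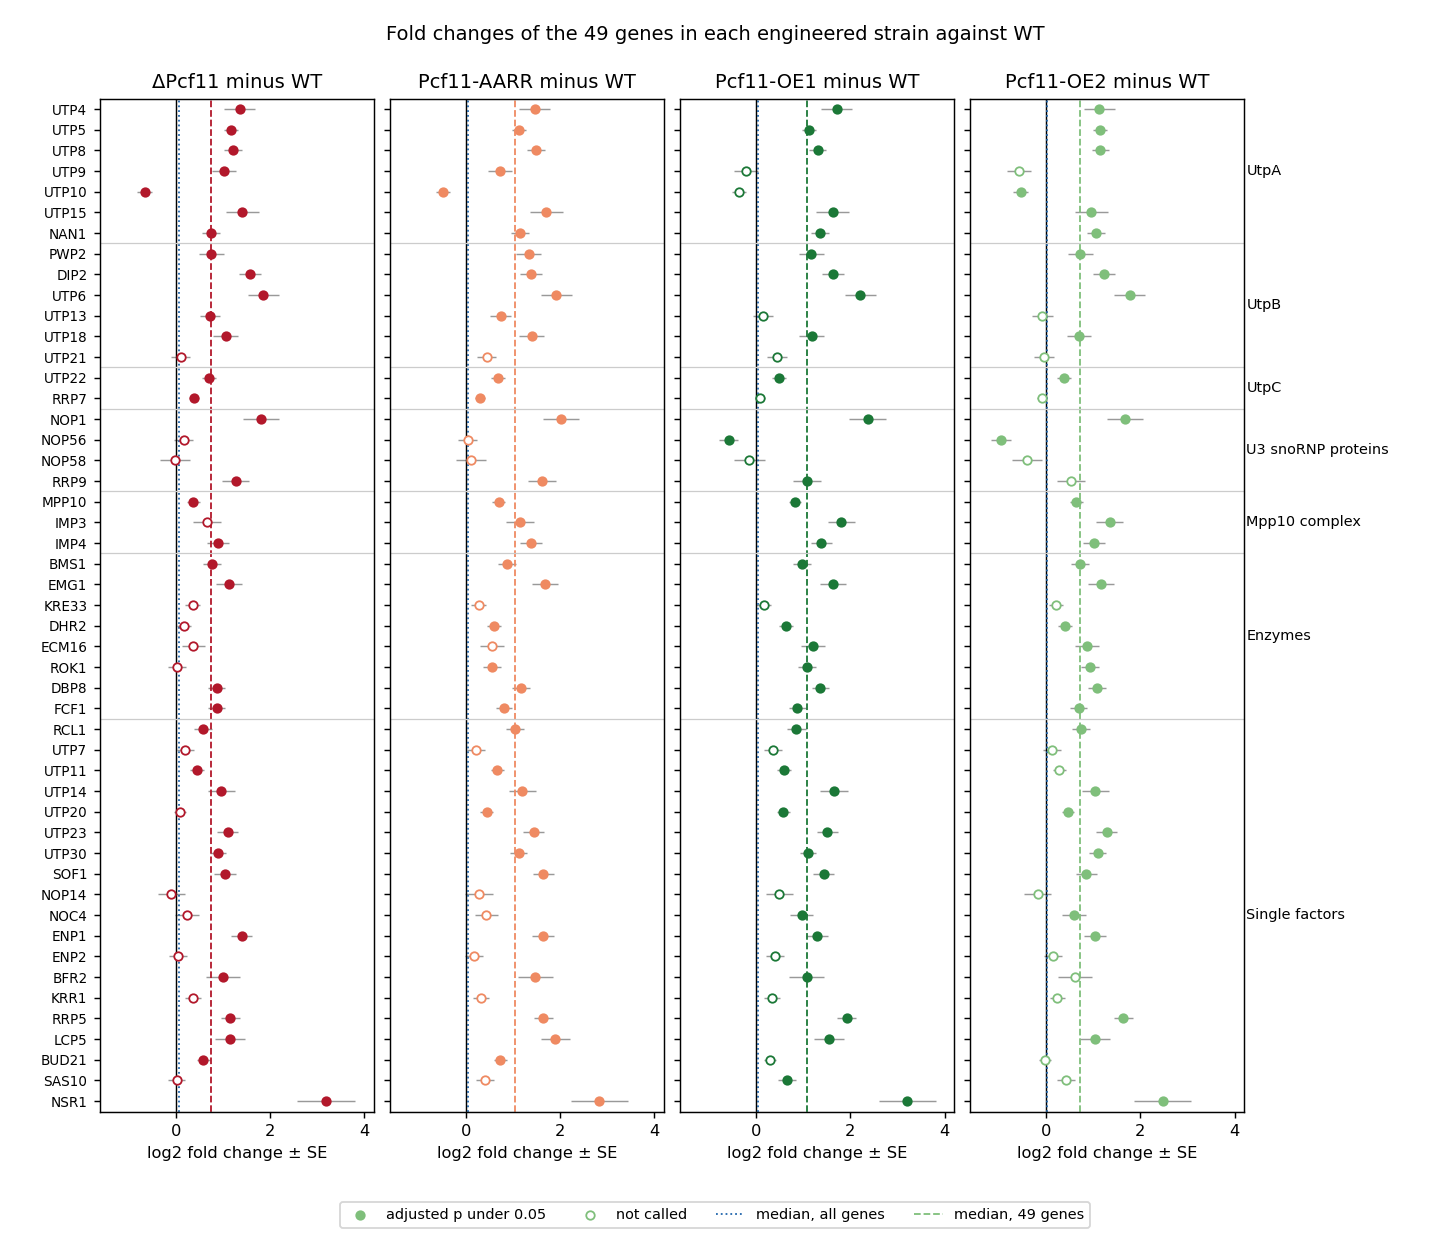
Each panel plots the log2 fold change against WT (horizontal axis, bars are SE from the edgeR fit) of the 49 genes (rows) for 1 engineered strain, with filled points for genes called at an adjusted p of 0.05, a dotted line at the median of all genes and a dashed one at the median of the 49. Points lie right of 0 for most genes, NSR1 is farthest right, and UTP10 lies left of 0 in all 4 panels.

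UtpA, the complex that binds the spacer first, has 7 subunits here (UTP4, UTP5, UTP8, UTP9, UTP10, UTP15 and NAN1). Of these subunits, 6 rose and 1 fell in the ΔPcf11-labelled libraries, 6 rose and 1 fell in Pcf11-AARR, 5 rose and 0 fell in Pcf11-OE1 and 5 rose and 1 fell in Pcf11-OE2. UTP4, UTP5, UTP8, UTP15 and NAN1 rose in all 4, with log2 fold changes between 0.75 (NAN1 in the ΔPcf11-labelled libraries) and 1.72 (UTP4 in Pcf11-OE1). UTP5 has the highest level of the 7 per kilobase. UTP5 had 72.3, 50.6 and 69.4 CPM for the ΔPcf11-labelled libraries and 65.5, 61.8 and 58.6 CPM for Pcf11-AARR. It had 76.6, 55.2 and 54.5 CPM for Pcf11-OE1 and 63.1, 68.1 and 56.8 CPM for Pcf11-OE2, against 28.7, 27.9 and 28.6 CPM for WT. All 12 engineered libraries exceeded the 3 WT libraries, which lay close together. The UTP5 log2 fold changes against WT were 1.18 ± 0.15 for the ΔPcf11-labelled libraries, 1.13 ± 0.15 for Pcf11-AARR, 1.13 ± 0.15 for Pcf11-OE1 and 1.14 ± 0.15 for Pcf11-OE2 (SE, edgeR adjusted p between 1.06e-05 and 1.39e-05).

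UTP10, the largest UtpA subunit, was the exception. UTP10 had 19.9, 15.6 and 17.8 CPM for the ΔPcf11-labelled libraries and 18.3, 20.6 and 21.2 CPM for Pcf11-AARR. The level was 26.0, 21.1 and 18.6 CPM for Pcf11-OE1 and 16.9, 21.1 and 19.9 CPM for Pcf11-OE2, against 22.5, 29.9 and 31.5 CPM for WT. The WT libraries were the 3 highest except that Pcf11-OE1 replicate 1 stood above WT replicate 1. The UTP10 log2 fold changes against WT were -0.65 ± 0.15 for the ΔPcf11-labelled libraries, -0.48 ± 0.15 for Pcf11-AARR, -0.36 ± 0.15 for Pcf11-OE1 and -0.54 ± 0.15 for Pcf11-OE2 (SE, edgeR adjusted p between 0.00202 and 0.0517). It fell in the ΔPcf11-labelled libraries, Pcf11-AARR and Pcf11-OE2, and its value in Pcf11-OE1 missed the threshold. The call in Pcf11-AARR was lost without Pcf11-AARR replicate 1 (-0.42), without WT replicate 3 (-0.39) and on library totals alone (-0.13), and the call in Pcf11-OE2 on library totals alone (-0.27). In Pcf11-OE1 it passed with relative log expression or DESeq2 (-0.40 each), without Pcf11-OE1 replicate 1 (-0.50) and without WT replicate 1 (-0.49).

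UTP9 split the engineered strains. UTP9 had 55.0, 35.8 and 60.9 CPM for the ΔPcf11-labelled libraries and 42.9, 47.3 and 33.4 CPM for Pcf11-AARR. It had 26.9, 18.1 and 19.2 CPM for Pcf11-OE1 and 10.6, 22.9 and 16.5 CPM for Pcf11-OE2, against 26.6, 27.0 and 21.0 CPM for WT. Levels stood above WT in the ΔPcf11-labelled libraries and Pcf11-AARR and overlapped WT in both overexpressing strains. The UTP9 log2 fold changes against WT were 1.03 ± 0.26 for the ΔPcf11-labelled libraries, 0.73 ± 0.26 for Pcf11-AARR, -0.21 ± 0.26 for Pcf11-OE1 and -0.57 ± 0.26 for Pcf11-OE2 (SE, edgeR adjusted p between 0.00293 and 0.472). The rise in Pcf11-AARR was lost without Pcf11-AARR replicate 1 (0.70), Pcf11-AARR replicate 2 (0.62) or WT replicate 3 (0.62). In Pcf11-OE2 it passed with DESeq2 (-0.60) and without Pcf11-OE2 replicate 2 (-0.87). The mean of Pcf11-OE1 and Pcf11-OE2 was lower than the ΔPcf11-labelled libraries (-1.42 ± 0.21 SE, edgeR adjusted p = 4.06e-05) and lower than Pcf11-AARR (-1.12 ± 0.21 SE, edgeR adjusted p = 0.000503).

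UtpB has 6 subunits (PWP2, DIP2, UTP6, UTP13, UTP18 and UTP21) and follows UtpA onto the transcript. By the test, 5 rose and 0 fell in the ΔPcf11-labelled libraries, 5 rose and 0 fell in Pcf11-AARR, 4 rose and 0 fell in Pcf11-OE1 and 4 rose and 0 fell in Pcf11-OE2. PWP2, DIP2, UTP6 and UTP18 rose in all 4, and UTP21 was called in none (0.11 for the ΔPcf11-labelled libraries, 0.44 for Pcf11-AARR, 0.45 for Pcf11-OE1 and -0.04 for Pcf11-OE2). With only Pcf11-AARR and WT in the fit, UTP21 passed without a replicate block (0.41) and with one (0.41). UTP6 was among the 3 genes with the highest fold changes in each strain. UTP6 had 9.55, 4.75 and 9.82 CPM for the ΔPcf11-labelled libraries and 7.96, 8.52 and 8.83 CPM for Pcf11-AARR. It counted 13.7, 10.8 and 6.59 CPM for Pcf11-OE1 and 5.65, 10.5 and 6.63 CPM for Pcf11-OE2, against 2.66, 2.03 and 2.02 CPM for WT. All engineered libraries lay above WT, and the lowest of them was replicate 2 of the ΔPcf11-labelled libraries. The UTP6 log2 fold changes against WT were 1.86 ± 0.33 for the ΔPcf11-labelled libraries, 1.92 ± 0.33 for Pcf11-AARR, 2.22 ± 0.33 for Pcf11-OE1 and 1.77 ± 0.33 for Pcf11-OE2 (SE, edgeR adjusted p between 3.07e-05 and 0.000257). The UTP6 model shares 40% of its bases with ADA2 on the other strand, which had log2 fold changes of 1.17 for the ΔPcf11-labelled libraries, 0.84 for Pcf11-AARR, 1.26 for Pcf11-OE1 and 1.18 for Pcf11-OE2.

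UTP13 has the highest UtpB level per kilobase. UTP13 had 210.4, 235 and 257 CPM for the ΔPcf11-labelled libraries and 256, 260.0 and 189 CPM for Pcf11-AARR. In the overexpressing strains it had 191, 159.5 and 122 CPM for Pcf11-OE1 and 92.7, 175 and 134 CPM for Pcf11-OE2, against 154, 149 and 119.8 CPM for WT. It was above WT in the ΔPcf11-labelled libraries and Pcf11-AARR, and overlapped WT in Pcf11-OE1 and Pcf11-OE2. The UTP13 log2 fold changes against WT were 0.73 ± 0.21 for the ΔPcf11-labelled libraries, 0.74 ± 0.21 for Pcf11-AARR, 0.16 ± 0.21 for Pcf11-OE1 and -0.07 ± 0.21 for Pcf11-OE2 (SE, edgeR adjusted p between 0.0073 and 0.779). The calls were those in the ΔPcf11-labelled libraries and Pcf11-AARR.

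UtpC is represented by UTP22 and RRP7. UTP22 rose in all 4 strains (log2 fold changes 0.70 for the ΔPcf11-labelled libraries, 0.68 for Pcf11-AARR, 0.49 for Pcf11-OE1 and 0.38 for Pcf11-OE2), and RRP7 in the ΔPcf11-labelled libraries and Pcf11-AARR. RRP7 had 114, 114 and 119 CPM for the ΔPcf11-labelled libraries and 114, 114 and 98.0 CPM for Pcf11-AARR. RRP7 had 99.0, 89.3 and 92.5 CPM for Pcf11-OE1 and 81.7, 85.7 and 82.3 CPM for Pcf11-OE2, against 80.2, 103 and 80.1 CPM for WT. The ΔPcf11-labelled libraries lay above all WT libraries, and the other 3 strains overlapped WT, whose replicate 2 was its highest. The RRP7 log2 fold changes against WT were 0.40 ± 0.10 for the ΔPcf11-labelled libraries, 0.31 ± 0.10 for Pcf11-AARR, 0.09 ± 0.10 for Pcf11-OE1 and -0.07 ± 0.10 for Pcf11-OE2 (SE, edgeR adjusted p between 0.00397 and 0.546). The call in Pcf11-AARR was lost without Pcf11-AARR replicate 1 or 2, without WT replicate 1 or 3, with only the compared strains in the fit, and with each count table by itself (0.25 to 0.27). STE50, on the other strand over 53.7% of the RRP7 model, had log2 fold changes of -0.25 for the ΔPcf11-labelled libraries, -0.31 for Pcf11-AARR, -0.55 for Pcf11-OE1 and -0.55 for Pcf11-OE2.

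The U3 snoRNP proteins did not move together. NOP1 codes for the methyltransferase fibrillarin, NOP56 and NOP58 for its paired scaffold proteins and RRP9 for the U3-specific subunit. NOP1 had 51.6, 17.3 and 31.3 CPM for the ΔPcf11-labelled libraries and 35.6, 36.6 and 43.8 CPM for Pcf11-AARR. It had 69.7, 48.0 and 29.9 CPM for Pcf11-OE1 and 18.7, 43.5 and 28.6 CPM for Pcf11-OE2, against 9.48, 8.47 and 10.6 CPM for WT. Every engineered library stood above WT, and the SD was 17.2 CPM for the ΔPcf11-labelled libraries, 4.51 for Pcf11-AARR, 19.9 for Pcf11-OE1 and 12.5 for Pcf11-OE2, against 1.04 for WT. The NOP1 log2 fold changes against WT were 1.81 ± 0.38 for the ΔPcf11-labelled libraries, 2.02 ± 0.38 for Pcf11-AARR, 2.37 ± 0.39 for Pcf11-OE1 and 1.67 ± 0.38 for Pcf11-OE2 (SE, edgeR adjusted p between 8.21e-05 and 0.00144). RRP9 had 97.6, 40.1 and 77.2 CPM for the ΔPcf11-labelled libraries and 86.2, 84.2 and 103 CPM for Pcf11-AARR. RRP9 had 79.8, 57.6 and 52.0 CPM for Pcf11-OE1 and 28.5, 55.8 and 44.3 CPM for Pcf11-OE2, against 29.0, 35.5 and 24.5 CPM for WT. Pcf11-OE2 overlapped WT through its replicate 1, and the other 3 strains lay above. The RRP9 log2 fold changes against WT were 1.27 ± 0.29 for the ΔPcf11-labelled libraries, 1.62 ± 0.29 for Pcf11-AARR, 1.09 ± 0.29 for Pcf11-OE1 and 0.53 ± 0.29 for Pcf11-OE2 (SE, edgeR adjusted p between 0.000242 and 0.121). In Pcf11-OE2 it passed without Pcf11-OE2 replicate 1 (0.75) and on library totals alone (0.81).

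NOP56, which has the highest level of the 4 per kilobase, was lower in both overexpressing strains. NOP56 had 91.7, 76.7 and 98.6 CPM for the ΔPcf11-labelled libraries and 89.9, 86.8 and 68.0 CPM for Pcf11-AARR. It had 73.0, 48.7 and 37.7 CPM for Pcf11-OE1 and 35.4, 49.8 and 38.1 CPM for Pcf11-OE2, against 91.4, 75.0 and 71.3 CPM for WT. Pcf11-OE2 lay below WT, Pcf11-OE1 overlapped it through replicate 1, and the remaining strains overlapped it. The NOP56 log2 fold changes against WT were 0.17 ± 0.21 for the ΔPcf11-labelled libraries, 0.04 ± 0.21 for Pcf11-AARR, -0.58 ± 0.21 for Pcf11-OE1 and -0.95 ± 0.21 for Pcf11-OE2 (SE, edgeR adjusted p between 0.00118 and 0.868). The call in Pcf11-OE1 was lost without Pcf11-OE1 replicate 2 (-0.52), Pcf11-OE1 replicate 3 (-0.38) or WT replicate 1 (-0.46) and on library totals alone (-0.28). NOP58 had 87.5, 47.9 and 72.9 CPM for the ΔPcf11-labelled libraries and 70.8, 71.8 and 85.2 CPM for Pcf11-AARR. NOP58 had 99.4, 56.5 and 34.9 CPM for Pcf11-OE1 and 36.2, 74.7 and 48.6 CPM for Pcf11-OE2, against 74.9, 62.8 and 72.1 CPM for WT. All 4 engineered strains overlapped WT. The NOP58 log2 fold changes against WT were -0.01 ± 0.32 for the ΔPcf11-labelled libraries, 0.12 ± 0.32 for Pcf11-AARR, -0.14 ± 0.32 for Pcf11-OE1 and -0.40 ± 0.32 for Pcf11-OE2 (SE, edgeR adjusted p between 0.295 and 0.98). NOP58 was called in none of them.

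The Mpp10 complex, which joins the U3 snoRNP to the pre-ribosomal RNA, has 3 members. All 3 rose in Pcf11-AARR, Pcf11-OE1 and Pcf11-OE2, and MPP10 and IMP4 also in the ΔPcf11-labelled libraries. MPP10 had 253, 241 and 249 CPM for the ΔPcf11-labelled libraries and 299.6, 308 and 321 CPM for Pcf11-AARR. It had 399, 338 and 277 CPM for Pcf11-OE1 and 261, 348 and 286 CPM for Pcf11-OE2, against 206, 179 and 188 CPM for WT. The 12 engineered libraries all lay above the 3 WT libraries. The MPP10 log2 fold changes against WT were 0.38 ± 0.13 for the ΔPcf11-labelled libraries, 0.70 ± 0.13 for Pcf11-AARR, 0.83 ± 0.13 for Pcf11-OE1 and 0.64 ± 0.13 for Pcf11-OE2 (SE, edgeR adjusted p between 6.73e-05 and 0.0213). The MPP10 call in the ΔPcf11-labelled libraries was lost without replicate 3 of that group (0.37), WT replicate 2 (0.33) or WT replicate 3 (0.36). IMP3 had 6.65, 4.72 and 5.39 CPM for the ΔPcf11-labelled libraries and 7.18, 8.56 and 7.83 CPM for Pcf11-AARR. IMP3 had 18.4, 10.2 and 8.78 CPM for Pcf11-OE1 and 6.04, 12.3 and 8.65 CPM for Pcf11-OE2, against 3.05, 3.44 and 4.10 CPM for WT. Levels again lay above WT in all 12 libraries, and Pcf11-OE1 replicate 1 was the highest. The IMP3 log2 fold changes against WT were 0.66 ± 0.29 for the ΔPcf11-labelled libraries, 1.15 ± 0.29 for Pcf11-AARR, 1.81 ± 0.29 for Pcf11-OE1 and 1.35 ± 0.29 for Pcf11-OE2 (SE, edgeR adjusted p between 6.78e-05 and 0.0619). In the ΔPcf11-labelled libraries IMP3 missed the threshold, and it passed with DESeq2 (0.63), library totals alone (0.79), each table by itself (0.60) or only the compared strains in the fit (0.61). SKG6, on the other strand over 57.6% of the IMP3 model, had log2 fold changes of 0.64 for the ΔPcf11-labelled libraries, 1.58 for Pcf11-AARR, 2.11 for Pcf11-OE1 and 1.66 for Pcf11-OE2, all called higher. IMP4 had log2 fold changes of 0.90 for the ΔPcf11-labelled libraries, 1.39 for Pcf11-AARR, 1.39 for Pcf11-OE1 and 1.02 for Pcf11-OE2.

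The 8 enzymes comprise the GTPase BMS1, the methyltransferase EMG1, the RNA acetyltransferase KRE33, the helicases DHR2, ECM16, ROK1 and DBP8, and FCF1, a PIN-domain protein. Among them, 4 rose and 0 fell in the ΔPcf11-labelled libraries, 6 rose and 0 fell in Pcf11-AARR, 7 rose and 0 fell in Pcf11-OE1 and 7 rose and 0 fell in Pcf11-OE2. BMS1, EMG1, DBP8 and FCF1 rose in all 4, EMG1 the most (log2 fold changes 1.14 for the ΔPcf11-labelled libraries, 1.67 for Pcf11-AARR, 1.63 for Pcf11-OE1 and 1.17 for Pcf11-OE2). FCF1 has the highest level of the group per kilobase. FCF1 had 101, 146 and 131 CPM for the ΔPcf11-labelled libraries and 137, 131 and 93.8 CPM for Pcf11-AARR. It had 156, 110.1 and 114 CPM for Pcf11-OE1 and 94.9, 127 and 111 CPM for Pcf11-OE2, against 67.9, 68.2 and 70.1 CPM for WT. Every engineered library stood above the WT libraries, which lay within a narrow range. The FCF1 log2 fold changes against WT were 0.87 ± 0.18 for the ΔPcf11-labelled libraries, 0.81 ± 0.18 for Pcf11-AARR, 0.88 ± 0.18 for Pcf11-OE1 and 0.69 ± 0.18 for Pcf11-OE2 (SE, edgeR adjusted p between 0.00047 and 0.00312).

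The helicase genes DHR2, ECM16 and ROK1 were not called in the ΔPcf11-labelled libraries. ROK1 had 56.9, 43.4 and 55.9 CPM for the ΔPcf11-labelled libraries and 71.9, 76.3 and 77.0 CPM for Pcf11-AARR. ROK1 had 145, 104 and 76.7 CPM for Pcf11-OE1 and 82.9, 112 and 98.2 CPM for Pcf11-OE2, against 54.1, 42.7 and 56.9 CPM for WT. The ΔPcf11-labelled libraries overlapped WT, and the other 3 strains lay above it. The ROK1 log2 fold changes against WT were 0.02 ± 0.19 for the ΔPcf11-labelled libraries, 0.55 ± 0.19 for Pcf11-AARR, 1.08 ± 0.20 for Pcf11-OE1 and 0.93 ± 0.20 for Pcf11-OE2 (SE, edgeR adjusted p between 0.000199 and 0.922). The ROK1 call in Pcf11-AARR was lost without Pcf11-AARR replicate 2 (0.54) or WT replicate 2 (0.44). SPO74, on the other strand over 35.7% of the ROK1 model, had log2 fold changes of 0.96 for the ΔPcf11-labelled libraries, 0.52 for Pcf11-AARR, 0.39 for Pcf11-OE1 and 0.51 for Pcf11-OE2.

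ECM16 had 125, 73.4 and 116 CPM for the ΔPcf11-labelled libraries and 101, 125 and 132 CPM for Pcf11-AARR. It had 267, 169 and 124 CPM for Pcf11-OE1 and 126, 171 and 149.5 CPM for Pcf11-OE2, against 87.5, 67.0 and 88.6 CPM for WT. The order of the strains was as for ROK1, with Pcf11-OE1 replicate 1 highest. The ECM16 log2 fold changes against WT were 0.38 ± 0.25 for the ΔPcf11-labelled libraries, 0.56 ± 0.25 for Pcf11-AARR, 1.20 ± 0.25 for Pcf11-OE1 and 0.88 ± 0.25 for Pcf11-OE2 (SE, edgeR adjusted p between 0.000673 and 0.202). In Pcf11-AARR ECM16 passed on library totals alone (0.92), with each table by itself (0.52) and with only the compared strains, without (0.52) or with (0.52) a replicate block. DHR2 had log2 fold changes of 0.18 for the ΔPcf11-labelled libraries, 0.60 for Pcf11-AARR, 0.64 for Pcf11-OE1 and 0.41 for Pcf11-OE2 and was called in all but the ΔPcf11-labelled libraries.

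KRE33 had 169, 229.9 and 202 CPM for the ΔPcf11-labelled libraries and 214, 205 and 147 CPM for Pcf11-AARR. It had 179, 187 and 158 CPM for Pcf11-OE1 and 155, 203 and 185 CPM for Pcf11-OE2, against 147, 174 and 147 CPM for WT. All 4 engineered strains overlapped WT. The KRE33 log2 fold changes against WT were 0.36 ± 0.16 for the ΔPcf11-labelled libraries, 0.27 ± 0.16 for Pcf11-AARR, 0.16 ± 0.16 for Pcf11-OE1 and 0.21 ± 0.16 for Pcf11-OE2 (SE, edgeR adjusted p between 0.0555 and 0.364). KRE33 passed in the ΔPcf11-labelled libraries on library totals alone (0.48), without replicate 1 of that group (0.47) or WT replicate 2 (0.45), in Pcf11-AARR on library totals alone (0.63) and without Pcf11-AARR replicate 3 (0.42), and in Pcf11-OE1 and Pcf11-OE2 on library totals alone (0.46 and 0.48).

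**Figure D5:**
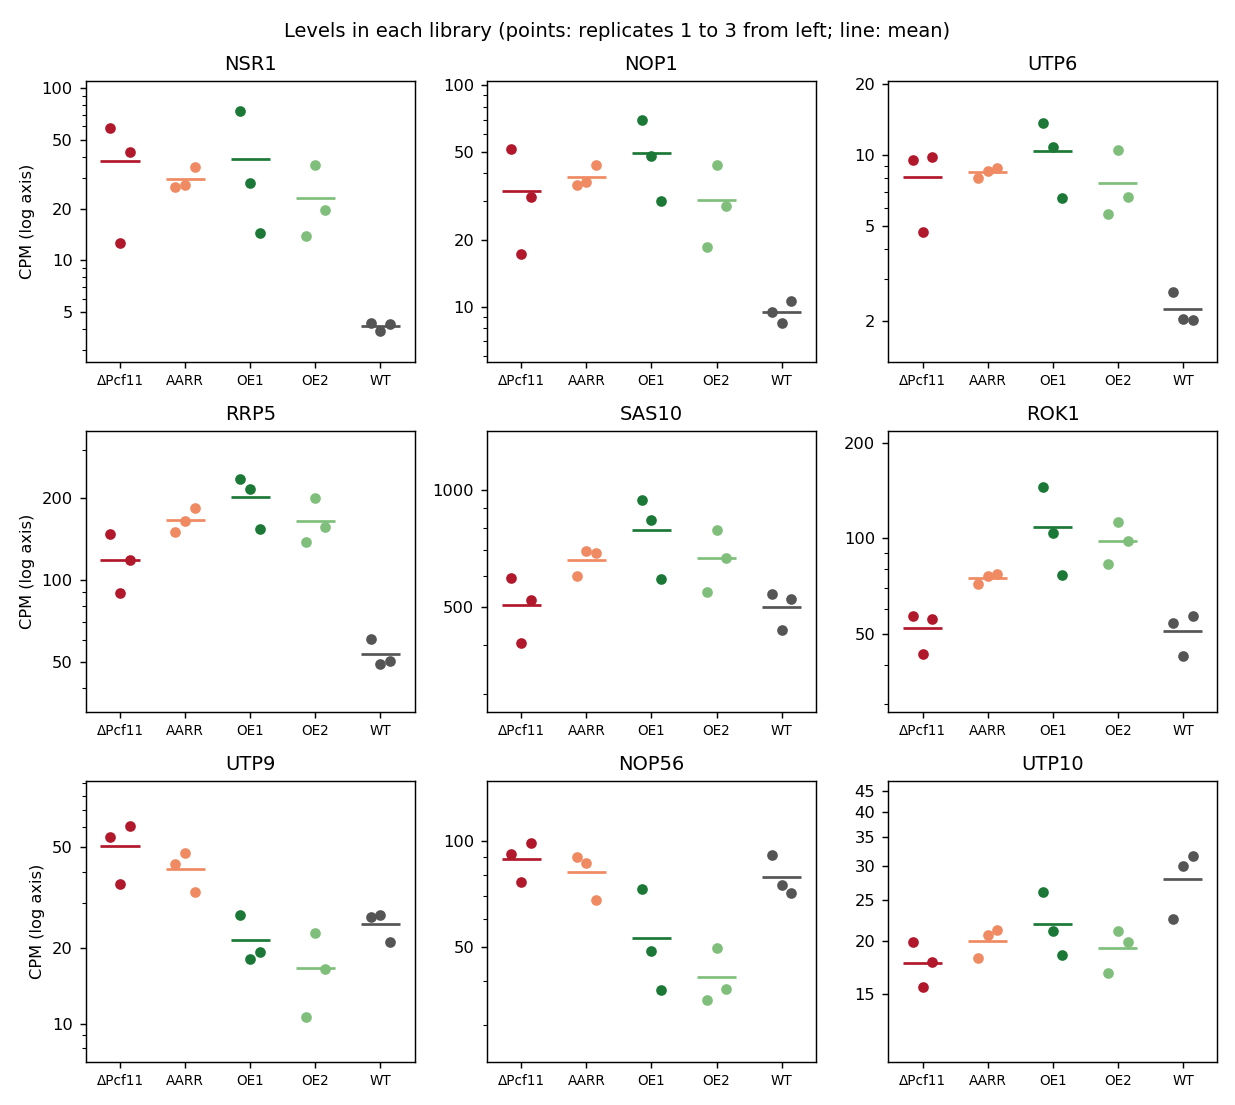
CPM of 9 processome genes in the 15 libraries, 1 panel per gene; points are replicates 1 to 3 from left, lines are strain means, the vertical axis is logarithmic, and WT is the rightmost strain. NSR1, NOP1, UTP6 and RRP5 lie above WT in every engineered library, UTP10 lies mostly below it, and UTP9 and NOP56 are lower in Pcf11-OE1 and Pcf11-OE2 than in the ΔPcf11-labelled libraries.

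The remaining 19 genes code for single factors of the particle. Of the 19, 12 rose and 0 fell in the ΔPcf11-labelled libraries, 13 rose and 0 fell in Pcf11-AARR, 14 rose and 0 fell in Pcf11-OE1 and 11 rose and 0 fell in Pcf11-OE2. UTP14, UTP23, UTP30, SOF1, ENP1, RCL1, RRP5, LCP5 and NSR1 rose in all 4 strains. UTP11 and BFR2 rose in all but Pcf11-OE2, UTP20 in all but the ΔPcf11-labelled libraries, BUD21 in the ΔPcf11-labelled libraries and Pcf11-AARR, NOC4 in Pcf11-OE1 and Pcf11-OE2, and SAS10 in Pcf11-OE1. With only Pcf11-AARR and WT in the fit, NOC4 also passed in Pcf11-AARR, without (0.40) or with (0.40) a replicate block. Its call in Pcf11-OE2 was lost with the replicate block over all strains (0.60). UTP7, NOP14, ENP2 and KRR1 were called in none. With UTP21, NOP58 and KRE33, that makes 7 of the 49 genes (14.3%) with no call against WT, against 8.59% of all genes tested. Over all subcomplexes, 26 of the 49 genes (53.1%) were higher in all 4 strains, against 1092 of 6147 genes tested (17.8%). The 4 comparisons share the same 3 WT libraries, so their calls are not independent.

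NSR1, the yeast nucleolin, showed the largest fold changes of the 49. NSR1 had 58.9, 12.6 and 42.4 CPM for the ΔPcf11-labelled libraries and 26.7, 27.3 and 34.9 CPM for Pcf11-AARR. It had 73.3, 28.3 and 14.4 CPM for Pcf11-OE1 and 13.8, 35.8 and 19.7 CPM for Pcf11-OE2, against 4.35, 3.88 and 4.29 CPM for WT. Every engineered library exceeded the WT libraries, and the replicates of one strain differed widely: the highest and lowest in the ΔPcf11-labelled libraries were replicates 1 and 2. The NSR1 log2 fold changes against WT were 3.19 ± 0.61 for the ΔPcf11-labelled libraries, 2.83 ± 0.60 for Pcf11-AARR, 3.21 ± 0.61 for Pcf11-OE1 and 2.47 ± 0.60 for Pcf11-OE2 (SE, edgeR adjusted p between 0.000288 and 0.00214). Among the 49 genes by CPM, NSR1 was at rank 30 to 36 in the engineered strains, against rank 45 in WT.

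SOF1, a WD-repeat protein, and LCP5, a factor of early cleavage, rose in all 4. SOF1 had 76.6, 47.3 and 69.9 CPM for the ΔPcf11-labelled libraries and 95.1, 101 and 97.6 CPM for Pcf11-AARR. SOF1 had 105, 86.5 and 62.0 CPM for Pcf11-OE1 and 40.2, 73.8 and 55.8 CPM for Pcf11-OE2, against 34.7, 29.2 and 30.0 CPM for WT. Pcf11-AARR was the highest strain by mean and its replicates the closest. The SOF1 log2 fold changes against WT were 1.05 ± 0.23 for the ΔPcf11-labelled libraries, 1.64 ± 0.23 for Pcf11-AARR, 1.43 ± 0.23 for Pcf11-OE1 and 0.86 ± 0.22 for Pcf11-OE2 (SE, edgeR adjusted p between 2.19e-05 and 0.00392). PSR1 shares 28.8% of the SOF1 model on the other strand and had log2 fold changes of 0.89 for the ΔPcf11-labelled libraries, 0.70 for Pcf11-AARR, 0.43 for Pcf11-OE1 and 0.22 for Pcf11-OE2. LCP5 had 67.5, 24.8 and 48.1 CPM for the ΔPcf11-labelled libraries and 74.0, 75.5 and 86.0 CPM for Pcf11-AARR. LCP5 had 67.2, 60.2 and 57.1 CPM for Pcf11-OE1 and 24.5, 61.0 and 44.2 CPM for Pcf11-OE2, against 22.7, 21.2 and 19.1 CPM for WT. Replicate 2 of the ΔPcf11-labelled libraries and replicate 1 of Pcf11-OE2 were the lowest engineered libraries, and both still exceeded WT. The LCP5 log2 fold changes against WT were 1.16 ± 0.31 for the ΔPcf11-labelled libraries, 1.90 ± 0.32 for Pcf11-AARR, 1.55 ± 0.31 for Pcf11-OE1 and 1.04 ± 0.31 for Pcf11-OE2 (SE, edgeR adjusted p between 0.000111 and 0.00889). The LCP5 call in Pcf11-OE2 was lost without Pcf11-OE2 replicate 2 (0.71).

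SAS10 has the highest level of the 49 per kilobase. SAS10 had 593, 405 and 522 CPM for the ΔPcf11-labelled libraries and 601, 696 and 688 CPM for Pcf11-AARR. SAS10 had 942, 836 and 592 CPM for Pcf11-OE1 and 548, 790.2 and 669.6 CPM for Pcf11-OE2, against 539, 436 and 523 CPM for WT. Only the ΔPcf11-labelled libraries overlapped WT. The SAS10 log2 fold changes against WT were 0.02 ± 0.19 for the ΔPcf11-labelled libraries, 0.41 ± 0.19 for Pcf11-AARR, 0.66 ± 0.19 for Pcf11-OE1 and 0.42 ± 0.19 for Pcf11-OE2 (SE, edgeR adjusted p between 0.0057 and 0.931). SAS10 passed in Pcf11-AARR on library totals alone (0.77) and with only the compared strains, without (0.37) or with (0.37) a replicate block, and in Pcf11-OE2 on library totals alone (0.70), with only the compared strains (0.41) and without Pcf11-OE2 replicate 1 (0.55). MSH5, on the other strand over 33.0% of the SAS10 model, had log2 fold changes of 0.85 for the ΔPcf11-labelled libraries, -0.03 for Pcf11-AARR, 0.57 for Pcf11-OE1 and 0.55 for Pcf11-OE2.

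NOP14 had 98.4, 47.9 and 91.9 CPM for the ΔPcf11-labelled libraries and 92.3, 111 and 106 CPM for Pcf11-AARR. It had 178, 105 and 76.1 CPM for Pcf11-OE1 and 58.9, 95.4 and 71.3 CPM for Pcf11-OE2, against 88.8, 73.7 and 91.6 CPM for WT. Pcf11-AARR lay just above WT and the other 3 strains overlapped it. The NOP14 log2 fold changes against WT were -0.09 ± 0.29 for the ΔPcf11-labelled libraries, 0.28 ± 0.29 for Pcf11-AARR, 0.50 ± 0.29 for Pcf11-OE1 and -0.17 ± 0.29 for Pcf11-OE2 (SE, edgeR adjusted p between 0.14 and 0.789). In Pcf11-OE1 NOP14 passed without Pcf11-OE1 replicate 3 (0.74) and on library totals alone (0.79).

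Comparisons among the engineered strains set none against WT, but the fit behind them held all 15 libraries, WT included. Of the 8 background genes, 0 were higher and 1 lower in Pcf11-AARR minus the ΔPcf11-labelled libraries, and 0 and 0 in Pcf11-OE2 minus Pcf11-OE1. For the mean of both overexpressing strains, it was 0 and 1 against the ΔPcf11-labelled libraries and 3 and 0 against Pcf11-AARR. The 6 mating type a genes gave, in that order, 0 and 3, 0 and 0, 3 and 1, and 6 and 0. Pcf11-AARR minus the ΔPcf11-labelled libraries gave 4 genes higher (UTP20, SOF1, DHR2 and ROK1; background 18.8%) and 0 lower (21.8%), with a median log2 difference of 0.23 (all genes -0.03). The largest were LCP5 (0.74 ± 0.31 SE, edgeR adjusted p = 0.064), which missed the threshold, and SOF1 (0.60 ± 0.22 SE, edgeR adjusted p = 0.0437). ROK1 differed by 0.53 ± 0.19 (SE, edgeR adjusted p = 0.0419), DHR2 by 0.42 ± 0.15 (SE, edgeR adjusted p = 0.0343) and UTP20 by 0.35 ± 0.13 (SE, edgeR adjusted p = 0.0466). With 0 genes lower at an unadjusted p of 0.05 as well, and 0 by DESeq2, the lowest values were NSR1 (-0.36) and UTP9 (-0.30). The count of 4 rested on single libraries: it was 10 without replicate 1 of the ΔPcf11-labelled libraries, 0 without its replicate 2 and 1 without its replicate 3, and 0, 0 and 2 without Pcf11-AARR replicates 1, 2 and 3.

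Pcf11-OE2 minus Pcf11-OE1 gave 0 genes higher (background 0.26%) and 0 lower (1.29%). The median was -0.31 (all genes 0.00072), with 47 of 49 values below 0. These values are not separate observations, as the genes of one library share its culture and depth. Pcf11-OE1 replicate 1 was the highest of its strain for 46 of the 49 genes and Pcf11-OE2 replicate 1 the lowest for 47. At an unadjusted p of 0.05, 0 were higher and 6 lower, and DESeq2 called 0 in either direction. The lowest were NSR1 (-0.74 ± 0.54 SE, edgeR adjusted p = 0.749) and NOP1 (-0.70 ± 0.36 SE, edgeR adjusted p = 0.606), and the highest KRE33 (0.05) and UTP5 (0.01).

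The mean of Pcf11-OE1 and Pcf11-OE2 minus the ΔPcf11-labelled libraries gave 10 genes higher (background 32.8%) and 5 lower (31.6%), with a median of 0.10 (all genes 0.02). Higher were UTP20, NAN1, IMP3, MPP10, NOC4, DHR2, ECM16, ROK1, RRP5 and SAS10, led by ROK1 (0.99 ± 0.18 SE, edgeR adjusted p = 0.000195) and IMP3 (0.92 ± 0.25 SE, edgeR adjusted p = 0.00489). Lower were UTP9, UTP13, NOP56, BUD21 and RRP7, led by UTP9 with the value given above and NOP56 (-0.93 ± 0.18 SE, edgeR adjusted p = 0.000318). Without replicate 2 of the ΔPcf11-labelled libraries the counts were 5 higher and 8 lower, and ECM16 and SAS10 were among the calls lost. With only the compared strains in the fit 7 were higher, as NAN1, NOC4 and DHR2 lost the call. NOC4 also lost it with a replicate block.

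Against Pcf11-AARR, the same mean gave 1 gene higher (ROK1; background 28.5%) and 7 lower (27.2%), with a median of -0.04 (all genes 0.0081). ROK1 differed by 0.46 ± 0.17 (SE, edgeR adjusted p = 0.0334). Lower were UTP9, UTP13, NOP56, RRP9, SOF1, BUD21 and RRP7, among them UTP9 (given above), RRP9 (-0.81 ± 0.24 SE, edgeR adjusted p = 0.0111) and NOP56 (-0.80 ± 0.18 SE, edgeR adjusted p = 0.00145). The ROK1 call was lost without any 1 of the 3 Pcf11-AARR libraries, Pcf11-OE1 replicate 1, Pcf11-OE2 replicate 2 or Pcf11-OE2 replicate 3, and 2 genes were higher without Pcf11-OE1 replicate 3. The SOF1 call was lost without any 1 of the 3 Pcf11-AARR libraries, Pcf11-OE1 replicate 2 or 3, or Pcf11-OE2 replicate 1 or 3. It was also lost with only the compared strains in the fit. The RRP7 call was lost without Pcf11-AARR replicate 1 or 2. The number lower was 14 without Pcf11-OE1 replicate 1 and 12 without Pcf11-OE2 replicate 2.

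Among the 3 ΔPcf11-labelled libraries, replicate 2 was the lowest for 43 of 49 genes (28.8% of all genes). Pcf11-OE1 replicate 1 was the highest for 46 and its replicate 3 the lowest for 42, against 33.4% and 37.1% of all genes. Pcf11-OE2 replicate 2 was the highest and replicate 1 the lowest for 47 each, against 38.4% and 42.4% of all genes. Pcf11-AARR replicate 1 was the lowest for 29 and its replicate 3 the highest for 26, against 33.6% and 45.7% of all genes, and WT replicate 2 was the lowest for 25, against 34.1%. The median log2 range over the 3 replicates was 0.60 for the ΔPcf11-labelled libraries, 0.25 for Pcf11-AARR, 0.66 for Pcf11-OE1 and 0.64 for Pcf11-OE2, against 0.25 for WT. Over all genes it was 0.30, 0.26, 0.28 and 0.29 in the 4 engineered strains, against 0.24 in WT. These are counts within strains, and the genes of one library share its culture and depth.

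Other factors of small-subunit assembly, 42 genes that are not among the 49, were tested beside them. Counts and medians of the 42 include the U3 RNA genes snR17a and snR17b. In the ΔPcf11-labelled libraries 21 rose and 5 fell (all genes 34.8% and 29.1%), and in Pcf11-AARR 26 rose and 5 fell (33.8% and 30.4%). In Pcf11-OE1 28 rose and 2 fell (36% and 32.1%), and in Pcf11-OE2 24 rose and 3 fell (34% and 31.1%). Their median log2 fold changes were 0.53 for the ΔPcf11-labelled libraries, 0.56 for Pcf11-AARR, 0.67 for Pcf11-OE1 and 0.54 for Pcf11-OE2. Highest were TSR2, a late assembly factor, in the ΔPcf11-labelled libraries and Pcf11-AARR (2.07 and 2.30), and FYV7, an 18S maturation factor, in Pcf11-OE1 and Pcf11-OE2 (2.68 and 2.76). SNU13, the core snoRNP protein that also serves the spliceosome, rose by 1.76 for the ΔPcf11-labelled libraries, 1.71 for Pcf11-AARR, 1.37 for Pcf11-OE1 and 1.23 for Pcf11-OE2. The lowest called value was the U3 RNA copy snR17b in the ΔPcf11-labelled libraries and Pcf11-AARR (-1.32 and -1.65), FAL1 in Pcf11-OE1 (-0.68) and RRP36 in Pcf11-OE2 (-0.85). Mature U3 RNA has no poly(A) tail, and the kit selects messenger RNA, so these reads are no measure of the U3 level.

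The promoter motifs were frequent there too. Of the 42 factors, 39 were matched by name to a protein-coding gene with a promoter window. Among these 39, 32 held the PAC core, 22 the RRPE core and 22 both. Among the 49 genes themselves, the medians by motif were as follows. In the ΔPcf11-labelled libraries the median log2 fold change was 0.75 for the 35 genes with both cores, 0.87 for the 11 with 1 and 0.90 for the 3 with neither, and in Pcf11-AARR it was 0.74, 1.15 and 1.12. In Pcf11-OE1 it was 1.08, 1.09 and 1.11, and in Pcf11-OE2 0.73, 0.70 and 1.09. Of 224 tested genes outside the list with both cores, 54.0% were higher and 14.3% lower for the ΔPcf11-labelled libraries, 63.8% and 13.0% for Pcf11-AARR, 60.3% and 16.5% for Pcf11-OE1 and 51.3% and 18.8% for Pcf11-OE2. Over all genes, in the same order, 34.8%, 33.8%, 36% and 34% were higher. Lower were 29.1%, 30.4%, 32.1% and 31.1%.

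Among 12 regulators of ribosome genes, 4 rose and 7 fell in the ΔPcf11-labelled libraries, where 34.8% of all genes rose and 29.1% fell. In Pcf11-AARR 2 rose and 6 fell (all genes 33.8% and 30.4%). In Pcf11-OE1 4 rose and 4 fell (36% and 32.1%), and in Pcf11-OE2 4 rose and 5 fell (34% and 31.1%). DOT6, the PAC-binding repressor, fell in all 4 strains (log2 fold changes -1.91 for the ΔPcf11-labelled libraries, -1.71 for Pcf11-AARR, -0.90 for Pcf11-OE1 and -0.84 for Pcf11-OE2), and STB3, the RRPE-binding repressor, fell as well (-1.29 for the ΔPcf11-labelled libraries, -1.59 for Pcf11-AARR, -0.78 for Pcf11-OE1 and -0.82 for Pcf11-OE2). TOD6, the paralog of DOT6, rose instead (0.79 for the ΔPcf11-labelled libraries, 0.89 for Pcf11-AARR, 0.85 for Pcf11-OE1 and 0.68 for Pcf11-OE2). SFP1, an activator of ribosome genes, had log2 fold changes of 0.99 for the ΔPcf11-labelled libraries, -0.03 for Pcf11-AARR, 0.49 for Pcf11-OE1 and 0.40 for Pcf11-OE2 and was called higher in all but Pcf11-AARR. IFH1, a coactivator of ribosomal protein genes, rose in all 4 (1.68 for the ΔPcf11-labelled libraries, 0.98 for Pcf11-AARR, 0.94 for Pcf11-OE1 and 0.76 for Pcf11-OE2). These are transcript levels of the regulators, and their part in the levels of the 49 genes was not tested.

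Peaks of Pcf11 in the CLIP libraries were counted over the 49 transcripts. The peak height used here is the authors' own value, the highest read depth in a peak. A sense peak lay in 4 of 49 genes in IP 1 (8.16%), against 915 of 6409 genes (14.3%), and in 9 of 49 in IP 2 (18.4%), against 1105 (17.2%). Those in IP 1 were DBP8, DHR2, FCF1 and NOP14, and those in IP 2 DIP2, FCF1, NOP14, RCL1, UTP11, UTP18, UTP20, UTP4 and UTP8.

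FCF1 and NOP14 held a peak in both, 4.08% of the 49 genes against 5.01% of all genes. For FCF1 the peak heights were 8 in IP 1 and 9 in IP 2, at chrIV:1150043-1150545 and chrIV:1150021-1150549 on the minus strand, annotated mainly as coding sequence. For NOP14 they were 10 and 10, at chrIV:188036-188667 and chrIV:187943-188432, with part of each peak annotated as the 3′ untranslated region. FCF1 rose in all 4 strains and NOP14 in none. The highest peak was that of UTP20 in IP 2, with a height of 14. The deposited input read counts gave a median of 111 sense reads per gene over the 49 genes in input 1 and 92 in input 2, against 98 and 92 over all genes, and a median of 2 antisense reads in both. The 2 IP lists share 2 of these genes: 2 of 4 in IP 1 and 2 of 9 in IP 2.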

How the data were processed

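RNA-seq was measured in 15 libraries of 5 strains and CLIP sequencing in 4. Reads were trimmed with fastp 0.23.0, per the submitters' processing notes; neither the aligner nor the counting tool is named in the sources used here. The authors deposited raw read counts per gene in a pair of tables that share the 3 WT libraries, and these were joined on the gene identifier (6863 features in common, with equal WT counts). The 454 features without a gene name, 0.872% to 1.38% of the reads, were left out. The mapped percent of 9 libraries is a deposited value per the file headers. The peak height is the authors' signal, the highest read depth in a CLIP peak. The input tables hold the authors' deposited sense and antisense read counts per gene.

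The tests used edgeR 4.0.16 in R 4.3.3, with TMM scaling, filterByExpr, robust quasi-likelihood fits of all 15 libraries with strain as the term, and Benjamini-Hochberg adjustment over 6147 genes. SE is the log2 fold change divided by the square root of F. CPM values are scaled by TMM. The labels call replicates biological but do not name separate cultures, so p-values measure the spread between these libraries. The script was tested on simulated data. Replicate numbers are shared by the strains, and no label ties a number to a batch. The correlation of deviations from strain means was over 0.1 for each number in Pcf11-AARR with WT (0.116, 0.182 and 0.349 for numbers 1 to 3). None of the other 9 pairs of strains passed 0.1 for each number. Relative log expression, library totals alone, no filter, DESeq2 1.42.0, a replicate block, each table by itself, only the groups compared, a 2-fold minimum and leaving out each library were tried.

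The members, gene lists and tests were chosen with earlier results of these data known. Values per library are given for the 3 highest and 3 lowest fold changes in each comparison with WT, the 2 highest and 2 lowest in each other comparison, and the member of each subcomplex with the highest CPM per kilobase. Promoter windows were cut from the RefSeq R64 genome, whose chromosome accessions match those of the count tables, in place of a promoter table.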

Additional observations from a re-analysis of the deposited data

How the results depend on the processing

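Of 2289 values for the genes given per library, 52 passed the threshold newly, 55 lost it and 0 were called in the opposite direction or changed sign while called. With at least 2-fold change required as well, the counts were 17 higher and 0 lower for the ΔPcf11-labelled libraries minus WT, 0 lower for Pcf11-AARR minus WT and Pcf11-OE1 minus WT, and 18 higher and 0 lower for Pcf11-OE2 minus WT. They were 0 higher for Pcf11-AARR minus the ΔPcf11-labelled libraries, and 0 higher and 1 lower for the mean of Pcf11-OE1 and Pcf11-OE2 minus either the ΔPcf11-labelled libraries or Pcf11-AARR. Over the 34 genes overlapped by under 20%, an alternative chosen after seeing the data, 24 were higher in Pcf11-AARR than in WT and 2 than in the ΔPcf11-labelled libraries, and for the mean of both overexpressing strains 3 were lower than in the ΔPcf11-labelled libraries and 0 higher and 4 lower than in Pcf11-AARR; fewer genes enter these counts. On library totals alone, 0 were lower in Pcf11-AARR minus WT and Pcf11-OE1 minus WT, 1 lower in Pcf11-OE2 minus WT, 17 higher in Pcf11-AARR minus the ΔPcf11-labelled libraries, and 0 higher in the mean of both minus Pcf11-AARR. On those totals the share of higher among all calls over all genes was 75.9% for Pcf11-AARR minus the ΔPcf11-labelled libraries (46.3% with TMM), 62.5% for the mean of both minus the ΔPcf11-labelled libraries (50.9%) and 40.9% for the mean of both minus Pcf11-AARR (51.2%). Relative log expression and DESeq2 each gave 2 lower in Pcf11-OE1 minus WT. For Pcf11-AARR minus the ΔPcf11-labelled libraries, DESeq2 gave 7 higher, each table by itself 14 and only the groups compared 9. Only the groups compared gave 0 higher for the mean of both minus Pcf11-AARR. The causes of these moves were not tested.

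Only Pcf11-AARR with WT had correlations of deviations over 0.1 for each number. In the other 9 pairs of strains, same-numbered libraries had correlations between -0.583 and 0.453. Over all 10 pairs of strains, a library correlated best with its own number in 10 of 30 cases, with 3 numbers to choose from in each. These values do not show that a shared number marks a shared batch. With the replicate block over all strains, 1 gene was higher in Pcf11-AARR than in the ΔPcf11-labelled libraries, KRE33 passed in the ΔPcf11-labelled libraries minus WT (0.36), and no other count of members moved by over 1.5 times. With the block and only Pcf11-AARR and WT in the fit, an alternative chosen after seeing the data, 41 genes were higher and 1 lower than in WT; UTP21, NOC4, ECM16 and SAS10 passed newly and no other call changed.

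Leaving out 1 library gave, for higher and lower, 29 to 33 and 1 to 1 (the ΔPcf11-labelled libraries minus WT), 34 to 39 and 0 to 1 (Pcf11-AARR minus WT), 34 to 41 and 0 to 2 (Pcf11-OE1 minus WT) and 25 to 36 and 2 to 3 (Pcf11-OE2 minus WT). Among engineered strains it gave 0 to 10 and 0 to 0 (Pcf11-AARR minus the ΔPcf11-labelled libraries), 0 to 0 in both directions (Pcf11-OE2 minus Pcf11-OE1), 5 to 14 and 5 to 8 (the mean of both minus the ΔPcf11-labelled libraries) and 0 to 2 and 5 to 14 (the mean of both minus Pcf11-AARR). The number lower in Pcf11-AARR minus WT was 0 without Pcf11-AARR replicate 1 or WT replicate 3, and in Pcf11-OE1 minus WT it was 2 without Pcf11-OE1 replicate 1 and 0 without its replicate 2 or 3. The lowest count of a member in any library was 65 reads, and how much of the spread of such genes is counting error was not tested.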
